A study of Caenorhabditis elegans with 2 samples.

Results

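The respiratory chain and the ATP synthase are the enzymes of the mitochondrial inner membrane that turn the energy of food into ATP. Complex I takes electrons from NADH and complex II takes them from succinate, and both pass them through ubiquinone to complex III. Cytochrome c carries the electrons on to complex IV, which gives them to oxygen, and the ATP synthase, also called complex V, uses the proton gradient built on the way. Most subunits are encoded in the nucleus, and a few are encoded by mitochondrial DNA. The genes described here are the nuclear protein-coding genes of Caenorhabditis elegans whose names start with nuo-, ndu, cox-, ucr-, cyc-, sdh, atp-, asb- or asg-. The rule gave 67 of 19973 nuclear protein-coding genes. Of these, 31 encode subunits of complex I, 4 of complex II, 6 of complex III, 2 cytochrome c, 7 subunits of complex IV, 8 assembly factors of complex IV and 9 subunits of the ATP synthase.

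The experiment was chromatin immunoprecipitation with sequencing of whole L1 larvae, pooled male and female, from strain OP49, which carries the unc119(ed3) mutation and the integrated transgene wgIs49. The transgene holds lin-13 fused to TY1, EGFP and FLAG tags, together with unc119, both replicates carry it, and the antibody field of the labels names lin-13. The zinc finger gene lin-13 belongs to class B of the synthetic multivulva genes, whose loss generally gives extra vulval tissue only together with loss of a class A gene. The labels give 1 group with 2 biological replicates and no second condition, so no test between groups of samples could be made. The tagged protein came from a transgene in 1 strain, and the whole animal was used, so a peak cannot be placed in a tissue. The deposited lists were 30000 calls for each replicate, 30000 for both replicates pooled, and a reproducible set of 2333 peaks, which are the pooled calls of highest signal. Signal is the authors' score for a call, on a scale the sources do not state, and rank 1 is the call of highest signal in a list. In the lists, 2475 calls of replicate 1 and 5192 calls of replicate 2 had a q-value under 0.05, and read depth is unknown. At lin-13 itself (III, 7700338 to 7709491), the nearest reproducible summit was 771 bp upstream, with a signal of 528.

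A reproducible peak lay within 500 bp of an annotated 5' end for 30 of the 67 genes (44.8%). Over all 19973 protein-coding genes the share was 8.62%. The strongest peaks were at the complex IV genes cox-5A, cox-5B and cox-6B and at atp-1, which encodes the alpha subunit of the ATP synthase. A further 20 genes had only a call of the pooled list below the reproducible set, and 17 had no pooled call within 500 bp. Any pooled call was found for 50 of the 67 genes (74.6%), against 39.2% of all genes. A window of 250 bp gave 18 genes (5.65% of all genes), one of 1000 bp gave 33 (10.9%), the stronger part of the reproducible set gave 22 (4.94%) and the 5'-most end of each gene 29 (8.21%). These shares are descriptions of 1 peak set, and no test of enrichment was made.

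The share of genes with a peak differed between the complexes by count. Complex IV had peaks at 5 of 7 subunit genes (71.4%), complex III at 4 of 6 (66.7%) and the ATP synthase at 6 of 9 (66.7%). Complex I had peaks at 11 of 31 genes (35.5%), complex II at 1 of 4 and cytochrome c at 1 of 2. Assembly factors of complex IV had peaks at 2 of 8 genes, below the subunits of the same complex. The median signal of the peaks was 332 for complex IV, 152 for the ATP synthase, 91.9 for complex III and 73.6 for complex I, and the median of all 1346 reproducible promoter peaks was 85.1. Complex IV, the ATP synthase and complex III therefore lay above that median and complex I below it. These groups had 5, 6, 4 and 11 peaks, and their ranges overlap. The order of the complexes by share depended on the rule. Within 250 bp the shares were 28.6% for complex IV, 33.3% for both complex III and the ATP synthase and 22.6% for complex I. With any pooled call complex IV stayed at 71.4%, below complex I (74.2%), complex III (83.3%) and the ATP synthase (9 of 9). A further count also took a peak at the first gene of a same-strand run, described below (12.8% of all genes). By it the assembly factors rose to 5 of 8 (62.5%), complex I to 48.4% and complex III to 83.3%. Complex IV stayed at 71.4% and the ATP synthase at 66.7%. The differences between complexes were not tested.

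**Figure D1:**
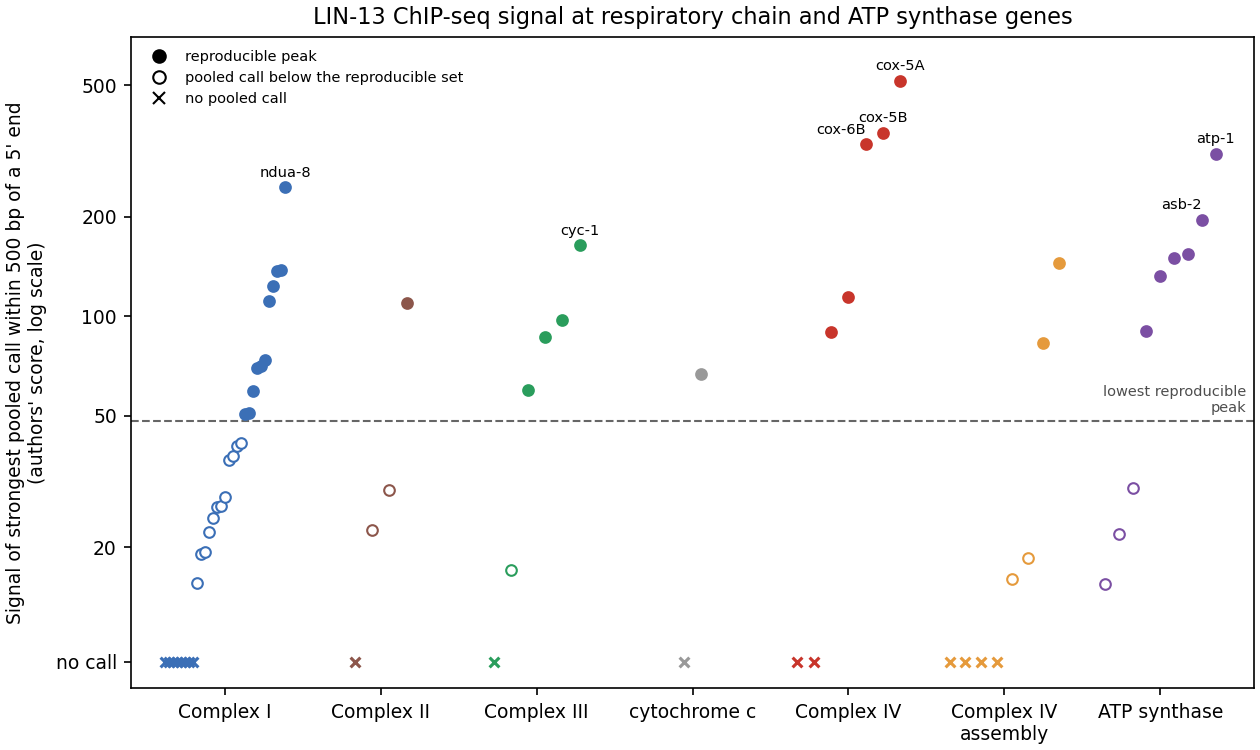
Signal of the strongest pooled call within 500 bp of a 5' end for each of the 67 genes, on a log scale, by complex. Filled points are the 30 genes with a reproducible peak, open points 20 genes with a weaker pooled call and crosses 17 genes with none. The dashed line is the lowest signal of the reproducible set, 48.2, and the highest points are cox-5A (516), cox-5B (359) and cox-6B (332).

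The sequences under 7 of the peaks are shown, because they are the strongest peak, at cox-5A, the strongest of complex I, at ndua-8, and 5 peaks with a GC-rich word that recurs at these genes. Each reaches 100 bp to either side of the summit and is read in the direction of the gene, from the RefSeq copy of WBcel235, the assembly of ce11. Capitals mark the GC-box CCGCCC or its reverse complement GGGCGG, and in cox-5A the word TTTGAA.
cox-5A, chrIII:12905094-12905294, plus strand: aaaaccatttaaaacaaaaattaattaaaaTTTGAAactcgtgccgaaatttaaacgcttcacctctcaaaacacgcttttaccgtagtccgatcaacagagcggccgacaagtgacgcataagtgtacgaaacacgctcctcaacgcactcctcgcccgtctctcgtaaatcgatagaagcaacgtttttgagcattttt
ndua-8, chrIII:2528739-2528939, plus strand: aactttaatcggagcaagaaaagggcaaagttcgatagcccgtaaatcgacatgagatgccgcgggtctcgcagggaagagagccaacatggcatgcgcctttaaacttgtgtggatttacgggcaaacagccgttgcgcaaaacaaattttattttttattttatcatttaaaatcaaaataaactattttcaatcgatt
asb-2, chrX:4469395-4469595, plus strand: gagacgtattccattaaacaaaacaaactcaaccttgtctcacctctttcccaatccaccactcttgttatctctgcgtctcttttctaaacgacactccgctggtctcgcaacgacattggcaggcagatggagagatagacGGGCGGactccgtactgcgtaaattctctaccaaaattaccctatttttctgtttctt
atp-2, chrIII:5228052-5228252, plus strand: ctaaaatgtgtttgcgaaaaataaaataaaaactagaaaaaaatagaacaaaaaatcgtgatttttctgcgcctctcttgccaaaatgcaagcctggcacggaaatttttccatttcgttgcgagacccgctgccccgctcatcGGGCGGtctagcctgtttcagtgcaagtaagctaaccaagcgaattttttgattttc
ucr-1, chrIII:5591865-5592065, plus strand: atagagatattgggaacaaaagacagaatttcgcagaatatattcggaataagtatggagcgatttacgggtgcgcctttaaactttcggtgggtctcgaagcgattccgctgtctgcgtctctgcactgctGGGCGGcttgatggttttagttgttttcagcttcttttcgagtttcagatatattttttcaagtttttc
cyc-2.1, chrIV:4748467-4748667, minus strand: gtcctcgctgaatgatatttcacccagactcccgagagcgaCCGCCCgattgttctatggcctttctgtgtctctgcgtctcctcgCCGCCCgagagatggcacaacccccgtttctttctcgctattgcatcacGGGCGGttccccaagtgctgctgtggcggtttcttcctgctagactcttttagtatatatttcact
ndua-1, chrV:20852087-20852287, minus strand: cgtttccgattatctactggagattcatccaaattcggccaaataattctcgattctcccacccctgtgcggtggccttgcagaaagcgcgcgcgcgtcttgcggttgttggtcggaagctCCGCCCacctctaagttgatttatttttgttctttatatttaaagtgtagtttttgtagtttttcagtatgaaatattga

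The GC-box was found in 10 of the 30 windows at these genes (33.3%). It was in 9.39% of the 2333 reproducible peaks, in 9.66% of the 1346 promoter peaks and in 5.96% of the windows of the same length that end at an annotated 5' end. Peaks of 4 of the 6 ATP synthase genes held it, namely atp-1, asb-2, atp-2 and atp-3. In these 4 the word began 33, 43, 44 and 39 bp downstream of the summit, on either strand. It was also in the peaks of ucr-1 and ucr-2.1 of complex III, of cyc-2.1, and of ndua-1, ndua-2 and nduf-7 of complex I. None of the 5 complex IV peaks, which include the strongest, held it. With a share of 9.66% among promoter peaks, 0 of 5 does not set complex IV apart. The cyc-2.1 window held 3 copies and the others 1 each. Among peaks at genes of the cytosolic ribosome, 4 of 62 held the GC-box, and among those of the mitochondrial ribosome 1 of 15. A match describes letters in a window and does not show a binding site.

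Other words were searched in the same windows on both strands. The cell cycle homology region (CHR), a short element known from cell cycle promoters and bound by LIN-54 of the DREAM complex, was searched as TTTGAA or TTCGAA. It was in 7 of 30 windows (23.3%), against 45.2% of all reproducible peaks and 55.3% of the windows at 5' ends. E2F-like words (TTCCCGCC, TTTCCCGC, TTCGCGCC, TTGGCGCC or TTCCCGCG) were in 0 of 30 windows, against 6.77% of all reproducible peaks. A run of 8 T, written TTTTTTTT, was in 4 of 30 windows (13.3%), against 14.3%. The median GC content was 40.55%, against 42.8% for all reproducible peaks and 40.8% for promoter peaks. Within 50 bp of the summit the order turned, with a median of 51.0% at these genes and 46.5% in both other sets. The words can overlap each other within a window.

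Complex IV held the strongest peak of the set at these genes. The subunit gene cox-5A (III, 12905491 to 12906619) had a signal of 516 at III, 12905103 to 12905290, rank 11 of 2333. In replicate 1 its call had a signal of 253 and rank 8, and in replicate 2 a signal of 267 and rank 14. The summit lay between protein-coding genes, 297 bp upstream of the 5' end, and no other protein-coding gene had a 5' end within 500 bp. The peak of cox-5B (I, 9788630 to 9788775) had a signal of 359, with 161 in replicate 1 and 195.5 in replicate 2. Its summit was 29 bp upstream of the 5' end, close to the gene start. The peak of cox-6B (III, 2785962 to 2786130) had a signal of 332, with 168 in replicate 1 and 167 in replicate 2. It lay 162 bp upstream of one annotated 5' end of cox-6B, inside an intron of a longer transcript of the same gene, and 92 bp upstream of the divergent gene Y71H2AM.20. These 3 peaks ranked among the first 100 of each list.

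The other subunits of complex IV were lower or had no peak. The signal was 114.5 at cox-4, with 55.8 in replicate 1 and 61.7 in replicate 2, and the summit was 452 bp upstream. At cox-6C the signal was 89.55, with 41.4 in replicate 1 and 41.55 in replicate 2, and the summit was 428 bp upstream and nearer to the divergent gene grld-1. Neither cox-6A nor cox-7C had a pooled call within 500 bp. The nearest reproducible summit of cox-6A was 750 bp upstream, with a signal of 87.9, and that of cox-7C was 15524 bp downstream.

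Of the assembly factors of complex IV, cox-14 and cox-10 had a peak. The peak of cox-14 had a signal of 145, with 75.6 in replicate 1 and 66.0 in replicate 2, and its summit was nearer to rde-4, a divergent gene of the RNA interference pathway. The peak of cox-10, which encodes the haem O synthase, had a signal of 83.1, with 41.2 in replicate 1 and 41.9 in replicate 2. The copper proteins cox-11, cox-17 and cox-19 and the membrane insertion factor cox-18 had no pooled call within 500 bp. Weak calls were present at cox-15, which encodes haem A synthase (signal 16.04, rank 21453), and at cox-16 (18.6, rank 15014).

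The 9 ATP synthase genes chosen by name each had some pooled call, and 6 had a reproducible peak. Subunit genes of the enzyme with other names were not analysed here. The catalytic core genes atp-1 and atp-2 encode the alpha and beta subunits. The peak of atp-1 (I, 12652188 to 12652344) had a signal of 310, with 140 in replicate 1 and 174 in replicate 2, and its summit was 7 bp upstream of the 5' end. The peak of atp-2 (III, 5227990 to 5228313) had a signal of 154, with 89.8 in replicate 1 and 62.8 in replicate 2, ranks 238 and 672. Its summit lay 265 bp upstream, nearly midway between atp-2 and the divergent genes C34E10.10 and C34E10.12. In the stalk, atp-3, which encodes the oligomycin sensitivity conferral protein, had a signal of 150 with its summit 9 bp upstream, and 64.0 and 88.2 in the replicates. The peripheral stalk gene atp-5, for subunit d, had a signal of 90.05, with 41.0 and 42.6 in the replicates, and its summit was only 35 bp upstream of the divergent gene lmtr-3. The gene asb-2, for subunit b, had a signal of 196, with 85.0 and 105 in the replicates. The gene asg-2, for subunit g, had a signal of 132, with 66.9 and 65.6. The other 3 of these genes were below the reproducible set, asg-1 with 30.2, atp-4 with 21.9 and asb-1 with 15.5.

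Complex III had peaks at cyc-1, for cytochrome c1, and at 3 genes for core subunits. The peak of cyc-1 (I, 8024580 to 8024903) had a signal of 164, with 86.2 in replicate 1 and 72.6 in replicate 2, and lay 320 bp upstream. The signals at ucr-2.2 and ucr-2.1 were 97.2 and 86.6. At ucr-2.1 the replicates differed more, with a signal of 26.7 and rank 1999 in replicate 1 and 57.4 and rank 796 in replicate 2. The peak of ucr-1 had a pooled signal of 59.7, with 12.9 at rank 11646 in replicate 1 and 40.5 at rank 1324 in replicate 2. The ucr-1 call thus had a low rank in replicate 1, where its q-value was not under 0.05. The gene ucr-2.3 had a pooled call of signal 17.1, and ucr-11 had none within 500 bp.

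Of the 4 complex II genes chosen by name, sdha-1 had a peak, and it encodes the flavoprotein that oxidizes succinate. Its signal was 110, with 49.9 in replicate 1 and 61.65 in replicate 2, and the summit lay 180 bp upstream and within 250 bp of the snoRNA gene D2021.6. The iron-sulfur subunit gene sdhb-1 had a pooled call of signal 29.9 and rank 4870. The gene sdhd-1 had no pooled call nearer than 2645 bp. Of the genes for cytochrome c, cyc-2.1 had a peak of signal 66.9. It was 118 bp upstream of the 5' end of a short transcript and inside an intron of a longer one. Replicate 2 had a call at the same summit with a signal of 42.9, and the nearest call of replicate 1 was 126 bp away.

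Complex I, the largest enzyme, had 11 peaks among 31 genes, and its strongest was at an accessory subunit. The peak of ndua-8 (III, 2528759 to 2528859) had a signal of 246, with 132 in replicate 1 and 106 in replicate 2. Its summit was 224 bp upstream of ndua-8 and nearer to the divergent genes rbc-2 and Y54F10AM.15. Of the genes for core subunits, the conserved part that moves electrons from NADH to ubiquinone, nuo-1 had a signal of 137, ndus-8 one of 70.5, nuo-2 one of 69.6 and nduf-7 one of 51.0. The gene nuo-1 encodes the flavoprotein that binds NADH, and its peak, with 67.0 in replicate 1 and 68.7 in replicate 2, lay 305 bp upstream of nuo-1 and 328 bp upstream of the divergent ribosomal protein gene rpl-36.A. The core genes nuo-5, nduv-2 and nduf-2.2 had no reproducible peak within 500 bp, but one with a signal of 164 lay 800 bp upstream of nduf-2.2. Accessory subunit genes with peaks were nduv-3 (signal 138), nduf-11 (123), ndub-8 (111), ndua-2 (73.6), ndua-1 (59.2) and nduf-6 (50.4). The nduv-3 summit was 14 bp upstream of the divergent gene mdf-2, so that nduv-3 was the farther of the pair. The calls of nduv-3, nduf-11 and ndub-8 ranked between 409 and 786 in both replicates.

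The lowest members of the reproducible set and the highest below it were mostly of complex I. Just inside were nduf-7 with a signal of 51.0 and rank 2169, and nduf-6 with 50.4 and rank 2198. The nduf-7 call had rank 4194 in replicate 1 and 1740 in replicate 2. The 5 highest outside were nuo-3 with 41.3 and rank 2890, ndua-7 with 40.4 and rank 2975, ndub-7 with 37.7, ndub-3 with 36.7 and asg-1 with 30.2. The nuo-3 call ranked 1584 in replicate 1 and 8726 in replicate 2, and the best call of ndua-7 ranked 6653 and 2696. The farthest pooled calls were 2950 bp from nuo-4, 2645 bp from sdhd-1 and 2041 bp from cox-11. The other complex I genes without a reproducible peak were ndua-5, ndua-12, ndua-13, ndub-2, ndub-5, ndub-6, ndub-10, ndub-11, nduc-2, nduf-5, nduf-9 and nuo-6, and ndua-13, ndub-2, ndub-5, ndub-11 and nduf-5 had no pooled call within 500 bp.

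The replicates placed most of these peaks alike. Of the 30 peaks, 28 (93.3%) had a call within 100 bp of the summit in both replicates, as did 93.7% of all 2333 reproducible peaks. The exceptions were ndua-2, whose nearest call in replicate 2 was 115 bp away, and cyc-2.1. In both replicates 25 of the 30 had a call among the 2333 of highest signal. That share is not given here for all reproducible peaks, which were themselves selected for reproducibility between the replicates. With the 2333 strongest calls of replicate 1 alone, 28 of the 67 genes had a call within 500 bp, and with those of replicate 2 alone 29 did, against 8.34% and 8.43% of all genes. From replicate 1 alone, nuo-2, ucr-1 and nduf-7 were lost and nuo-3 was gained, and from replicate 2 alone ndua-2 was lost. Calls with a q-value under 0.05 were near 29 of the genes in replicate 1 (8.67% of all genes) and near 36 in replicate 2 (14.3% of all genes).

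**Figure D2:**
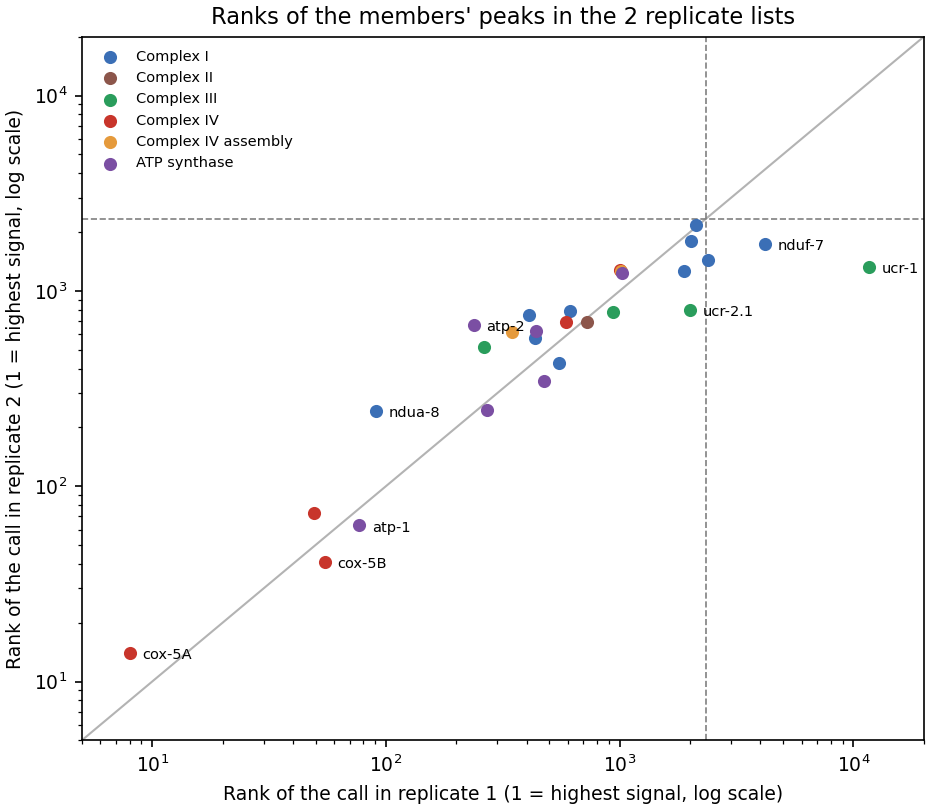
Rank of each call in replicate 1 and replicate 2, on log axes, for the 28 peaks with a call in both replicates, coloured by complex. The grey line marks equal ranks and the dashed lines rank 2333. The points follow the line from cox-5A, with ranks 8 and 14, and ucr-1 lies farthest from it, with ranks 11646 and 1324.

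All 30 peaks lay upstream of the nearest annotated 5' end of their gene. Their median position was -198 bp, from -452 to -7 bp, and for all 1346 promoter peaks, each taken to its nearest gene, the median was -161 bp with quartiles of -256 and -71 bp. Most promoter peaks thus also lay upstream, and this position is not particular to these genes. The 30 peaks were measured to their own gene, also for the 8 nearer to another gene, so the medians use unlike measures. The peaks of cox-5B, atp-1, atp-3 and nduf-7 were within 100 bp of the 5' end, and the other 26 were farther upstream. In complex IV the positions spread from -452 to -29 bp. Of the 30 summits, 27 lay between protein-coding genes, those of cox-6B and cyc-2.1 were in introns, and that of nuo-2 was in the 3' UTR of T10E9.14. The share between genes is not given here for all promoter peaks. Many C. elegans transcripts are trans-spliced, and an annotated 5' end can then lie downstream of the start of transcription.

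**Figure D3:**
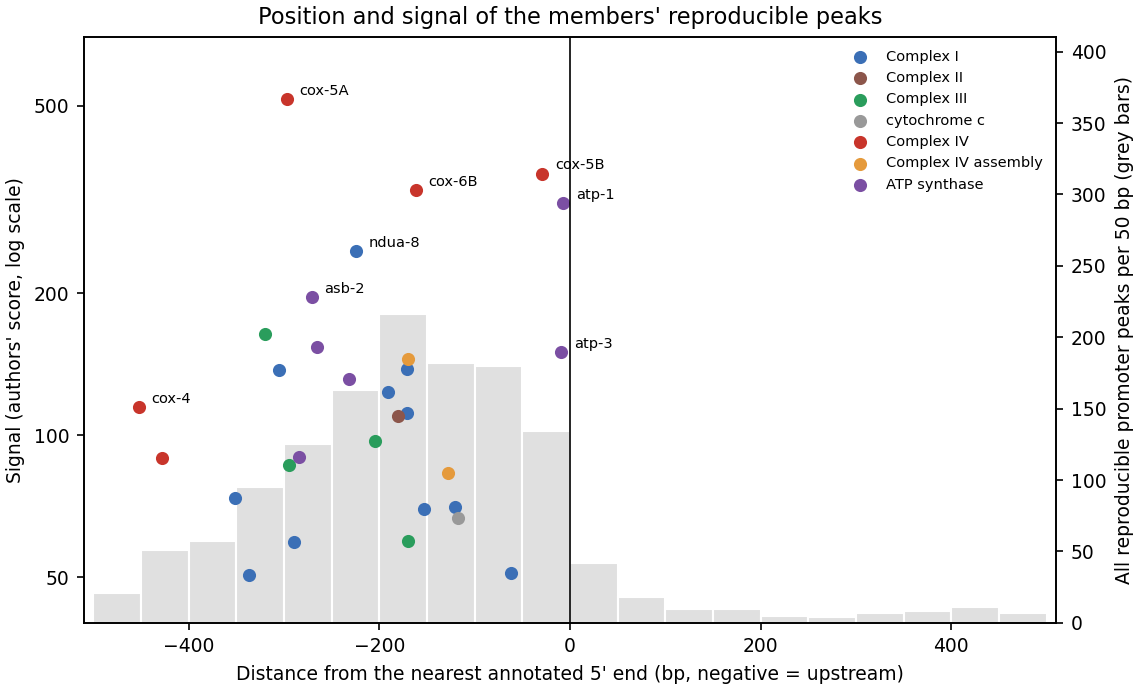
Signal of the 30 peaks, on a log scale, against the distance of the summit from the nearest annotated 5' end of the gene, with negative values upstream. Grey bars count all 1346 promoter peaks per 50 bp, each by its distance to the nearest gene, which for some of the 30 peaks is another gene. Every coloured point lies left of 0, as do most of the peaks counted in grey, and cox-5B, atp-1 and atp-3 lie closest to 0.

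Shared promoters limit the assignment of a peak to a gene. Another protein-coding gene had a 5' end within 500 bp of the summit for 17 of the 30 peaks, and in each case at least one such gene ran in the opposite direction. In 8 of them the other gene was nearer, namely for cox-6B, ndua-8, cox-14, nduv-3, atp-5, cox-6C, ucr-2.1 and ndua-2. The other 13 peaks, among them cox-5A, cox-5B, asb-2, cyc-1, sdha-1 and ucr-2.2, had no 5' end of another protein-coding gene within 500 bp. Gene bodies, 3' ends and noncoding genes were not counted here. The counts of shared peaks are not given here for all promoter peaks, so sharing is not shown to be particular to these genes. When each summit counted only for the gene with the nearest 5' end, 22 of the 67 genes had a peak, against 6.59% of all genes. By the same rule the count over all genes fell from 1721 to 1317.

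Some of these genes stand in runs of neighbours on the same strand, a layout typical of C. elegans operons. In an operon, downstream genes are transcribed from the promoter of the first. Operons are not annotated in the files used, so a run was taken as same-strand genes less than 1000 bp apart. By this rule 24 of the 67 genes followed another gene in a run, as did 6101 of all 19973 genes, so the layout is not particular to them. Of the 41 genes with a divergent upstream neighbour, 22 had a peak (53.7%), and of the 24 genes that follow a same-strand gene within 1000 bp, 7 did (29.2%). The same shares over all genes were 13.1% and 5.59%. For 8 further genes without a peak of their own, the first gene of the run had one. These were nuo-4 behind syf-2, with a signal of 546, cox-11 behind lin-54 (459), nduc-2 behind cox-6B (332), cox-18 behind Y55F3AR.2 (273), ucr-11 behind dad-1 (188), cox-15 behind rpn-9 (151.5), ndua-12 behind ubxn-2 (132) and nuo-5 behind Y45G12B.2 (96.5). The ranks of these first-gene peaks ran from 6 to 1043 in replicate 1 and from 12 to 800 in replicate 2. With them, 38 of the 67 genes had a peak at their own 5' end or at the first gene of the run, against 12.8% of all genes. The gene cyc-2.1 had its own peak and also followed rpl-20, whose peak had a signal of 545.5.

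Several subunits are encoded by more than one gene, and the copies differed in their peaks. The grouping by copy was made after the values were seen. The flavoprotein of complex II had a peak at sdha-1 on X (signal 110), and sdha-2 on I had a pooled call of 22.6. Subunit b of the ATP synthase had a peak at asb-2 on X (196), and the best call at asb-1 on III, known as the germline form, was 15.5. Subunit g had a peak at asg-2 on X (132), and asg-1 on I had 30.2. Core subunit 2 of complex III had peaks at ucr-2.1 and ucr-2.2, both on X, and ucr-2.3 on III had a call of 17.1. Cytochrome c had a peak at cyc-2.1 on IV (66.9), and cyc-2.2 on V had no pooled call within 500 bp. In these 5 families, each of the 5 copies on X had a peak, and 1 of the 6 autosomal copies did. The 5 copies are all of the 67 genes that lie on X. Over all genes, the share with a peak was 5.35% on X and 9.13% on autosomes, and on autosomes 25 of the 62 genes of the respiratory chain and ATP synthase had one (40.3%).

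The share of these genes with a call was above that of all genes at each depth of the pooled list examined. Among the 100 strongest pooled calls, 4 of the 67 genes had one within 500 bp (5.97%), against 0.481% of all genes. Among the 1000 strongest, 20 did (29.9%), against 4.32%. Among the 10000 strongest, 43 did (64.2%), against 20.2%.

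**Figure D4:**
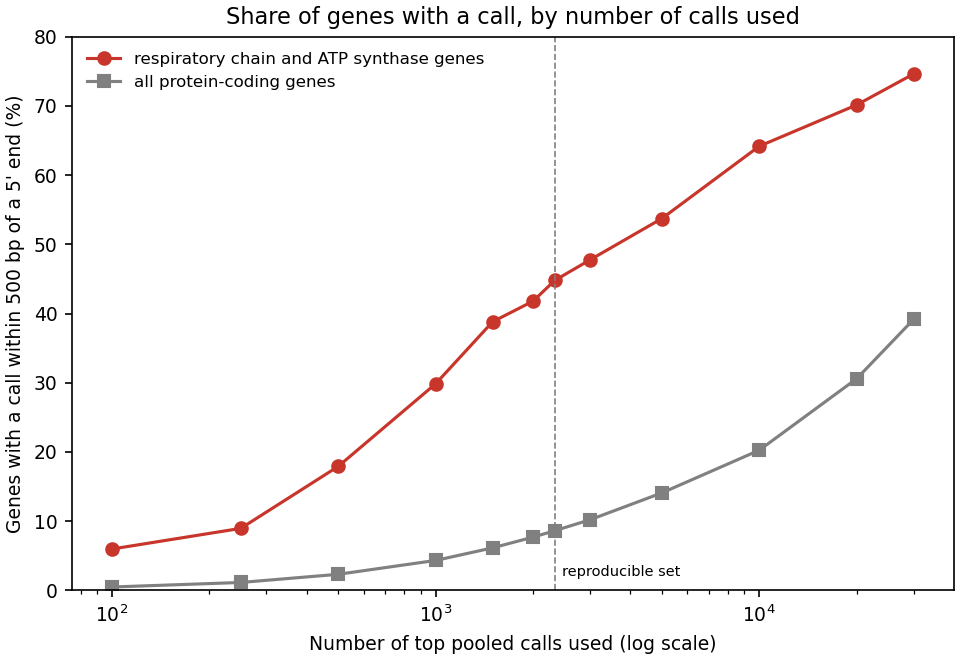
Share of genes with a call within 500 bp of a 5' end, against the number of strongest pooled calls used, on a log axis. Red is the 67 genes and grey all 19973 genes, and the dashed line marks the 2333 calls of the reproducible set. At that line the shares were 44.8% and 8.62%.

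Other genes of respiration, from lists of known names, were described by count. Of the 46 genes, 19 had a peak (41.3%, against 8.62% of all genes). In the pyruvate dehydrogenase and citrate cycle list 10 of 17 genes had a reproducible peak. With the strongest calls of replicate 1 alone 7 of the 17 had a call, and with those of replicate 2 alone 8. The highest were dld-1, for the dihydrolipoamide dehydrogenase (432, rank 25), aco-2, the aconitase (285.5), and mdh-2, a malate dehydrogenase (138). The others in this list were idhb-1 (108), sucl-1 (72.7), idhg-1 (71.0), cts-1 (65.5), idha-1 (55.2), fum-1 (52.1) and suca-1 (51.2). Among subunits under other names, mev-1, a complex II gene, had a signal of 136 and isp-1, the Rieske protein of complex III, had 60.9, and gas-1 and lpd-5 of complex I had no peak. Both genes for ATP synthase inhibitors had one, with 87.8 at mai-2 and 82.5 at mai-1. The adenine nucleotide carrier ant-1.1 had 284, and the other 3 carriers had none. None of the 8 ubiquinone synthesis genes had a peak. In the list of assembly and haem genes 2 of 6 had one, sco-1 (303) and nuaf-1 (77.2), and in that of mitochondrial DNA, chaperones and stress 2 of 5 had one, hsp-6 (114) and atfs-1 (80.01). For comparison by count, genes of the mitochondrial ribosome had a peak at 16 of 70 (22.9%) and genes of the cytosolic ribosome at 65 of 78 (83.3%). The 67 genes lay between these groups at 500 bp. With a window of 250 bp they had the highest share of the 3, with 18 of 67 (26.9%) against 14 of 70 for the mitochondrial and 15 of 78 for the cytosolic ribosome. With the first gene of a run also counted, the share was 56.7% for the 67 genes. It was then 45.7% for the mitochondrial ribosome (32 of 70) and 87.2% for the cytosolic ribosome. The differences were not tested.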

How the data were processed

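ChIP-seq of whole L1 larvae was deposited as peak lists for 2 biological replicates. Per the text descriptions deposited with the lists, each replicate's list and the pooled list were called against a control alignment with background kept, and the reproducible set was derived from them by irreproducible discovery rate (IDR). The aligner, the caller, the depth and the IDR threshold were not given in the sources used here. Signal is the authors' deposited score per call, and was ranked only within a list. The authors' deposited −log10 q-value served to count the calls of each replicate whose q-value was under 0.05. The ce10 copies of the lists were not used here.

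Summits of the ce11 lists were compared with 5' ends of protein-coding transcripts from Ensembl release 115 on WBcel235, with Python 3.11.15 and pandas 2.3.3. Summits within 500 bp of any 5' end of a gene were assigned to it. Replicate calls were matched within 100 bp. The look-up was tested on simulated data. No test between samples was possible and no p-value was computed. Alternatives were other windows, peak sets, 5' ends and matching distances. The genes, lists and rules were chosen with earlier results of these data known. Genes named were those with a peak, those next to the threshold, those farthest from a call, and others when their complex was accounted for. The RefSeq genome supplied sequences.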

Additional observations from a re-analysis of the deposited data

How the results depend on the processing

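With a window of 250 bp, 18 of the 67 genes and 1129 of all genes had a reproducible peak, with 7 in complex I, 2 in complex III, 2 in complex IV and 3 in the ATP synthase. With any pooled call the counts were 50 and 7823, with 23 in complex I, 3 in complex II, 5 in complex IV and 4 among complex IV assembly factors. With the stronger part of the reproducible set they were 22 and 986, with 5 in complex I and 0 for cytochrome c. Counting the nearest 5' end only left 22 genes, with 3 in complex IV and 1 among its assembly factors. In windows reaching 50 bp to either side of the summit, CHR was in 3 of 30 peaks (24.1% of all reproducible peaks), the run of T in 0 (4.93%) and the GC-box in 8 (5.32%). The causes of these changes were not tested, apart from the fewer or more calls each setting admits by construction.

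With replicate 1 or replicate 2 left out, the count was between 28 and 29 of the 67 genes and between 1666 and 1684 of all genes, 10 in complex I and between 3 and 4 in complex III. The other complexes kept their counts. The signal percentile was counted down from the strongest promoter peak, so a low value is a strong peak. Its median was between 28.4 and 34.4, against 33.8. The median position was between -212 and -194 bp, against -198 bp. A window of 1000 bp gave 33 genes and the 5'-most end of each gene 29. Counting the first gene of a same-strand run, chosen after seeing the data, gave 38. No paired analysis was possible because the labels give only 1 group. Depth is unknown, so a gene without a call was only not detected in these lists.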
